A study of Mus musculus with 3 samples.

Results

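In RM1, a mouse prostate cancer cell line, 19 of the 39429 probes on a 2-colour expression array gave signal in 1 of 2 transfected lines and little or none in the other. A probe was included where, on all 3 arrays, the mean spot signal was at least 3.5 times the local background in one line and at most 2 times it in the other. The direction had to be the same on every array. Signal in RM1-MXRA7 only was found for 10 probes, which stand for 7 named genes and 1 unnamed probe, and signal in RM1-VE only for 9 probes of 9 genes. That makes 16 of the 27503 gene names on the array. These are 0.0254% and 0.0228% of all probes. The members were chosen on these very values, so the differences between the lines are given for them as a description, without a test.

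RM1-MXRA7 cells were transfected with MXRA7 (matrix remodelling associated 7) and RM1-VE cells with the empty vehicle vector. Both lines were kept in DMEM with fetal calf serum under G418, the antibiotic that selects for the transfected vector, and were taken in exponential growth on day 2. Total RNA of RM1-MXRA7 was labelled with Cy3 and that of RM1-VE with Cy5 on each of the 3 arrays, numbered as replicates 1 to 3. Dye and line therefore cannot be told apart for any single probe. The labels do not say whether a line is 1 clone or a pool, nor whether the replicates were separate cultures, and the number of arrays, 3, limits the precision. All levels are from bulk RNA, in which fewer expressing cells and less RNA per cell cannot be told apart.

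The arrays detected between 21787 and 24181 probes above background per channel, and across 16825 genes the log2 ratios of pairs of arrays correlated at 0.785 to 0.851 (Pearson's r, across genes, which are not independent replicates). The brighter of the Mxra7 probes, on mm9 chr11:116673251-116673310, had log2 ratios of 0.39, 0.39 and 0.15, which became 0.06, 0.00 and -0.04 once a smooth trend across the array surface was removed. Whether these probes match the transfected sequence is not stated, so the direction of the values below rests on the labelled dyes. The epithelial keratins Krt8 and Krt18 and the mesenchymal filament gene Vim were bright in both lines, whereas the epithelial adhesion genes Epcam and Cdh1 did not pass the detection filter. Over the whole array 21803 of 39429 probes passed this filter. Of the marker lists for other cells, 4 of 8 leukocyte genes and 0 of 4 erythroid genes passed it, and Ptprc did not. Among the leukocyte genes Cd3e was called lower (log2 ratio -0.29 ± 0.07, limma adjusted p = 0.00528). Of 4 endothelial genes 3 passed, and Cdh5 was called lower (log2 ratio -0.87 ± 0.28, limma adjusted p = 4.10e-06). Of 3 basal genes 2 passed, and Trp63 was called lower by its brightest probe (-0.52 ± 0.06, limma adjusted p = 7.12e-05). Other Trp63 probes gave at most 2.26 times background in either line and did not pass the filter. The part of these marker genes in the results below was not tested.

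The RM1-VE-only genes include enzymes of folate and sulfur amino acid metabolism, a ubiquitin ligase adaptor, a cell death gene and a transcription factor. Ggh, gamma-glutamyl hydrolase, is a lysosomal enzyme that trims the glutamate tail which holds folates inside the cell. Cth, cystathionine gamma-lyase, makes cysteine from cystathionine in the last step of transsulfuration, after cystathionine beta-synthase (Cbs), and can also release hydrogen sulfide. The RM1-MXRA7-only genes are mostly copies of a clustered family on chromosome 12 related to the translation initiation factor gene Eif1a, together with members of the X-linked Xlr and Slx families. Genes of the first kind are known from the cleavage-stage mouse embryo, and those of the second from lymphocytes and from male germ cells.

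Since the probes of the chromosome 12 family resemble each other, their sequences are shown first. The stretch CTTCATTTGGC, in capitals below, occurs in 5 of the 7 member probes on chromosome 12 and in 7 of all 39429 array probes, the other two being for F11r and Plekhb1. Each line is a window of 30 bases from a 60-base probe, 5′ to 3′, with mm9 probe positions as the array files give them in the sentence after the list.
Gm21319: aagtaaatCTTCATTTGGCatgcatgtggc
Gm2016, the brighter member probe: aagtaaaaCTTCATTTGGCatgcgtgtgtc
Gm2016, the dimmer member probe: aaatataaCTTCATTTGGCatacttgtgtc
BB287469: CTTCATTTGGCctccgtgtgtcttgttaat
Gm8300, the dimmer member probe: aagtaaaaCTTCATTTGGCatgagtgtgtt
Gm8300, the brighter member probe, which lacks the stretch: gtctcttgtgttaatctgttttcaagaagt
In the same order the probes lie at chr12:89265932-89265991, chr12:89115537-89115596, chr12:89276065-89276124, chr12:89058287-89058346, chr12:88858331-88858390 and chr12:88858902-88858961. The dimmer Gm2016 probe is annotated on the minus strand and the other listed probes on the plus strand. The Gm21319 probe and the dimmer Gm8300 probe were identical at 53 of 60 aligned columns, and the Gm21319 probe and the dimmer Gm2016 probe at 51 of 59. The brighter Gm2016 probe shared an unbroken run of 24 bases with the dimmer Gm8300 probe and of 23 bases with the BB287469 probe. RNA of 1 copy may thus be read by several of these probes, and which gene of the family gave the signal is uncertain for those that share such runs. The brighter Gm8300 probe shared no run longer than 8 bases with the other family probes compared. Its match to transcripts of other copies was not examined, so its source is not settled either.

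Gm21319 had the brightest signal of all members. Its signal was 69.5, 72.9 and 72.6 times background in RM1-MXRA7 and 1.51, 1.66 and 1.83 times background in RM1-VE on arrays 1, 2 and 3. The lines lie far apart on every array, and the log2 ratio was 5.60 ± 0.08 (SD, n = 3). A fold against a channel that is not above background is a lower bound. It was taken from the normalised mean of the bright line over a floor. The floor was the lowest signal that counts as well above background in the dim channel. Where the dim signal itself lay above the floor it was used instead, as on all 3 arrays for Fahd2a and the other Cth probe below. The bound is open to dye bias. By that bound Gm21319 was at least 42.7-fold higher in RM1-MXRA7. The size of every member's log2 ratio depends on the background correction, since the offset of 50 pulls low signals together. With Agilent's processed signals, which hold no such offset, the mean log2 ratios were 8.16 in place of 5.60 for Gm21319, 3.47 in place of 1.49 for Trim68, -7.50 in place of -4.06 for Ggh and -3.92 in place of -1.25 for Tfap2c. Over the members their size ran from 2.76 to 8.16 in the RM1-MXRA7-only set and from 3.75 to 7.50 in the RM1-VE-only set.

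The brighter Gm8300 probe gave 23.8, 24.7 and 23.9 times background in RM1-MXRA7 against 1.13, 1.13 and 1.24 in RM1-VE, at least 13.0-fold higher. Its log2 ratio was 4.20 ± 0.10 (SD, n = 3). The brighter Gm2016 probe gave 13.3, 10.4 and 12.1 against 1.13, 1.39 and 1.43, at least 6.54-fold higher, with a log2 ratio of 3.07 ± 0.19 (SD, n = 3). In RM1-VE the values of these 2 probes lie at or below 1.43, where the median Cy5 signal of the blank control spots was 1.12, 1.12 and 1.43 times background on the 3 arrays.

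The other chromosome 12 members were dimmer. BB287469 gave 8.82, 6.44 and 6.82 times background in RM1-MXRA7 and 1.40, 1.48 and 1.68 in RM1-VE, at least 4.29-fold higher. The dimmer Gm2016 probe gave 7.29, 5.57 and 5.79 against 1.26, 1.04 and 1.47, and the dimmer Gm8300 probe 4.93, 4.06 and 4.95 against 0.972, 1.12 and 1.19. An unnamed probe at chr12:89219400-89219459 gave 5.55, 4.29 and 5.04 against 1.26, 1.19 and 1.68. Their log2 ratios ran from 1.66 ± 0.17 for the unnamed probe to 2.28 ± 0.25 for BB287469 (SD, n = 3). Within this family the order of brightness thus spans probes of 1 gene, as Gm8300 has a bright and a dim member probe. The Gm2016 member probes share a name, but they lie at different places on opposite strands and may not read the same gene. Levels of different probes are not comparable as RNA amounts.

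**Figure D1:**
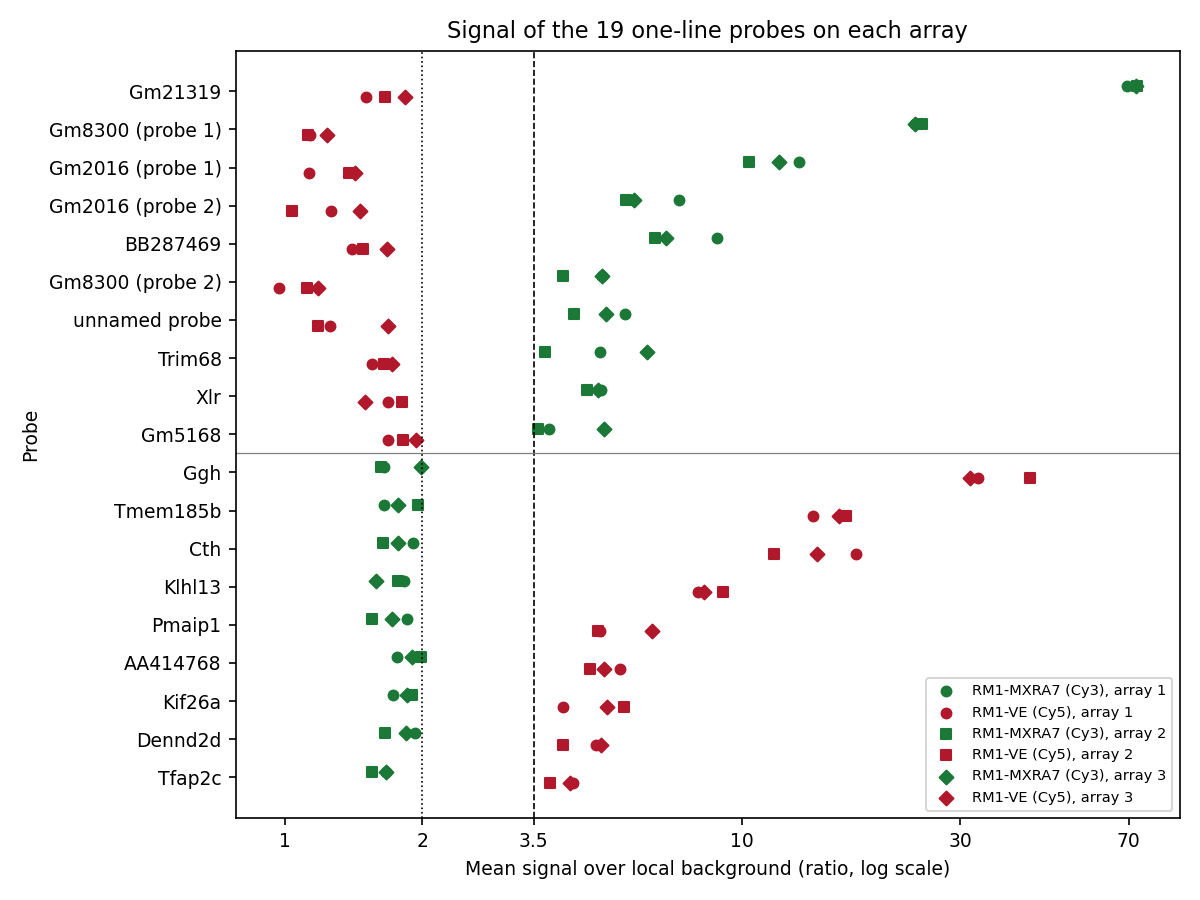
Signal over local background (log axis) of the 19 probes, with 1 point per array for RM1-MXRA7 (Cy3) and for RM1-VE (Cy5); the lines mark the limits of 2 and 3.5. Gm21319, at 69.5 to 72.9 in RM1-MXRA7, stands farthest out in one direction and Ggh, at 31.5 to 42.7 in RM1-VE, in the other.

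The 7 probes lie within 417.8 kb of mm9 chromosome 12 (88858331 to 89276124). This stretch holds 25 array probes. Besides the members, 9 were bright in RM1-MXRA7 on all 3 arrays, and 7 of those were bright in both lines. The flanks of 300 kb on either side hold 22 probes and 0 members. Chromosome 12 carries 3.76% of all mapped probes, 7 of the 10 RM1-MXRA7-only probes and 1 of the 9 RM1-VE-only probes. Since several of the 7 probes share sequence, RNA of 1 copy may give signal at more than 1 of them. They are therefore not separate hits to set beside that share.

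Some probes of the stretch missed the rule but leaned the same way. A Gm2022 probe, for another Eif1a-like copy, gave 27.0, 22.9 and 24.0 times background in RM1-MXRA7 and 3.71, 2.98 and 4.44 in RM1-VE, so it was measurable in both lines. By this probe Gm2022 was higher in RM1-MXRA7 at 3.03 ± 0.11 on the log2 scale (SD, n = 3; adjusted p = 9.97e-14 by limma over all genes). A second detected Gm2022 probe was dimmer, at a mean of 2.88 times background in RM1-MXRA7 and 1.42 in RM1-VE, with a log2 ratio of 0.71. An unnamed probe at chr12:89218929-89218988 was at least 6.32-fold higher and missed the rule on 1 array, where RM1-VE reached 2.14 times background. It shared a run of 24 bases with the brighter Gm2022 probe, so these 2 probes are not separate evidence. A further Gm2016 probe was bright in both lines, at 79.2, 83.1 and 103 against 32.1, 32.2 and 24.4, with a log2 ratio of 2.04 ± 0.30 (SD, n = 3).

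Not every probe of these genes showed the difference. Of the 7 other probes of 5 member genes, 3 belong to Gm2016, and they had log2 ratios of 2.04, -0.16 and 0.01. The Gm2016 probe at -0.16 was not well above background in either line, at 1.45, 1.35 and 1.67 against 1.41, 1.26 and 1.25. The Gm2016 probe at 0.01 was dim in both lines on arrays 1 and 2 and bright in both on array 3, at 6.70 and 8.37 times background. The second BB287469 probe gave 2.29, 2.12 and 3.24 against 1.20, 0.960 and 2.69, with a log2 ratio of 0.52 ± 0.22. The remaining Gm8300 probe was not well above background in either line, at 2.11, 1.77 and 2.04 against 1.26, 1.24 and 1.25. The statement for each gene therefore holds for the probes listed, not for the gene name.

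**Figure D2:**
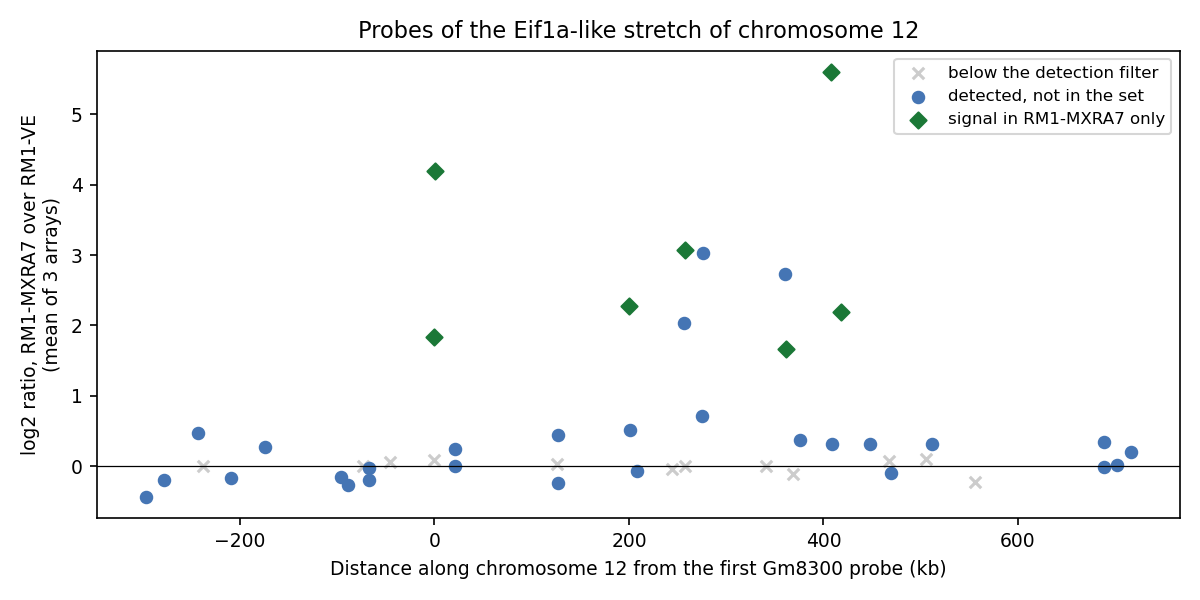
Mean log2 ratio of RM1-MXRA7 over RM1-VE (3 arrays) of the probes in the chromosome 12 stretch, by distance in kb from the first Gm8300 probe. The 7 members lie between 1.66 and 5.60, and 3 detected probes that are not members, at 3.03, 2.73 and 2.04, lie within that range.

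Where the start sites are known, the family members could be compared upstream as well. RefSeq (GRCm38.p6) gave a promoter for 10 of 17 names, and of the chromosome 12 genes for Gm21319 and BB287469. Their promoters are shown to give the likeness of the copies upstream of the transcript. Over the 250 bases before the start they were identical at 177 positions, 70.8%, against 40.0% and 47.6% with the Eif1ax promoter. The 100 bases before each start follow, 5′ to 3′ on the gene's strand, with TATATA in capitals.
Gm21319, GRCm38.p6 chr12:87775756-87775855, minus strand: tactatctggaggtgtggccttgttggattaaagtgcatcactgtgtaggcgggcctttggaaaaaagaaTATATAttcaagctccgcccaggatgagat
BB287469, GRCm38.p6 chr12:87816477-87816576, plus strand: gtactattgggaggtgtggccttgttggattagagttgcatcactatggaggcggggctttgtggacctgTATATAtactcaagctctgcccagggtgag
On mm9 the array files place the Gm21319 probe on the plus strand and beyond BB287469, whereas RefSeq places the gene named Gm21319 on the minus strand and before BB287469. Which locus the Gm21319 probe reads is therefore uncertain.
The letters TATATA, which read the same on both strands, were searched in the 100 bases before the start. They occur in both of these, in none of the other 8 member promoters, and in 644 of all 27025 promoters, 2.38%. The motif was picked after these promoters had been seen, and a match is a description of letters, not of a bound site.

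The X-linked members of the RM1-MXRA7-only set were dimmer. Xlr, the X-linked lymphocyte-regulated gene, is related to the synaptonemal complex gene Sycp3, and its probe lies at chrX:51091062-51091121 (mm9). It gave 4.91, 4.58 and 4.84 times background in RM1-MXRA7 and 1.69, 1.81 and 1.5 in RM1-VE, with a log2 ratio of 1.37 ± 0.15 (SD, n = 3) and a bound of at least 2.31-fold. Gm5168 gave 3.79, 3.58 and 5.0 against 1.69, 1.81 and 1.94, the narrowest gap of all members. Its RM1-VE signal was well above background on 1 of the 3 arrays only. Its bound was at least 1.96-fold, with a log2 ratio of 1.02 ± 0.13. The array's annotation of this probe also lists transcripts of similar genes, so the source within the family is uncertain.

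The Gm5168 probe (chrX:25455842-25455901, mm9) shares a run of 34 bases with the probe of Slx, a spermatid gene of the same family. The run's first 20 bases are in capitals in the windows below.
Gm5168: cagtcagagaCAGACCCTGGAAGCAATTGA
Slx: tagtcagagtCAGACCCTGGAAGCAATTGA
Slx was the only detected gene of 11 other listed Xlr and Slx family genes on the array. It gave 4.32, 4.03 and 5.04 times background in RM1-MXRA7 and 2.27, 2.71 and 2.93 in RM1-VE, and it rose, by 0.93 ± 0.06 on the log2 scale (SD, n = 3; adjusted p = 1.58e-07 by limma). Given the shared run, the Slx and Gm5168 values are not independent of each other. Gm2012, 173 kb from Gm5168, was the other detected gene within 500 kb of it. It also rose, with a log2 ratio of 1.23 (limma adjusted p = 9.06e-09). Its RM1-VE signal was well above background on 2 of 3 arrays. The sequence of the Gm2012 probe was not compared with those of Gm5168 and Slx, so it cannot be counted as separate evidence.

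Trim68 was the remaining RM1-MXRA7-only gene. It encodes a RING-type ubiquitin ligase. Trim68 gave 4.89, 3.71 and 6.20 times background in RM1-MXRA7 and 1.55, 1.65 and 1.72 in RM1-VE, with a log2 ratio of 1.49 ± 0.28 (SD, n = 3) and a bound of at least 2.56-fold. Its probe lies at chr7:109826347-109826406 (mm9). None of the related TRIM genes tested was called higher. Among 11 tested genes of the list, 0 rose, 3 fell and 8 were not called, beside 11.0% higher and 12.6% lower among all 16825 genes tested by limma. Those that fell were Trim25, which acts in antiviral RNA sensing (log2 ratio -0.48 ± 0.13, adjusted p = 0.000197), Trim6 (-0.45 ± 0.04, adjusted p = 0.000224) and Trim30a (-0.59 ± 0.45, adjusted p = 0.00101).

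The list of cleavage-stage and Eif1a-like genes held 21 further genes on the array, of which 9 passed the detection filter. Of these 2 rose, 0 fell and 7 were not called, against 11.0% higher and 12.6% lower of all genes. Both that rose are among the 4 Eif1a-like genes, and the 5 other cleavage-stage genes were not called, at log2 ratios of -0.16 to 0.12. Beside Gm2022 the other was Eif1ax, the X-linked initiation factor that all cells use, at a log2 ratio of 0.27 ± 0.12 (SD, n = 3; adjusted p = 0.0113 by limma). The split into Eif1a-like and other cleavage-stage genes was not planned, and Gm2022 lies within the chromosome 12 stretch of the members. Zscan4c, a marker of the cleavage stage, had a log2 ratio of -0.16 and was not called, and Tcstv1 and Tcstv3 did not pass the filter.

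In the RM1-VE-only direction Ggh stood farthest out. Its probe, for the folate hydrolase, gave 32.8, 42.7 and 31.5 times background in RM1-VE and 1.65, 1.62 and 1.99 in RM1-MXRA7. The values of the lines lie far apart on every array, although 1.99 is just inside the limit of 2. The log2 ratio of RM1-MXRA7 over RM1-VE was -4.06 ± 0.21 (SD, n = 3), and the level in RM1-MXRA7 was lower by a factor of at least 15.9. The Ggh probe is at chr4:19993114-19993173, the Cth probe at chr3:157560183-157560242, the Tmem185b probe at chr1:121424655-121424714 and the Klhl13 probe at chrX:22796399-22796458 (mm9). Their first 30 bases are shown as the sequences behind the 4 RM1-VE-only members with the largest ratios of bright over dim signal, with nothing in capitals.
Ggh: cctggttctgattcctggcttaatacatga
Cth: atcaatgacacactgatacgactttctgtg
Tmem185b: cggacacaggtctctagtattctaatagat
Klhl13: gatgtccatggtttcccttcttttcttcaa

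Other genes of folate and one-carbon metabolism had no common direction. Of 26 tested genes 2 rose, 4 fell and 20 were not called, near the 11.0% and 12.6% of all genes called higher and lower, with a median log2 ratio of -0.08. Fpgs, which adds the glutamates that Ggh removes, had a log2 ratio of -0.19 ± 0.15 (SD, n = 3) and was not called (limma adjusted p = 0.067). Aldh1l1, which oxidises 10-formyl-tetrahydrofolate, rose with a log2 ratio of 0.98 ± 0.47 (adjusted p = 1.65e-05), and Slc46a1, the proton-coupled folate transporter, with 0.58 ± 0.27 (adjusted p = 0.000159). Both had their lowest ratio on array 1, at 0.44 and 0.28. Methionine synthase, Mtr, fell by 0.39 on the log2 scale (adjusted p = 0.00119).

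Cth was read by 2 probes, and both were far lower in RM1-MXRA7. The member probe gave 17.8, 11.7 and 14.6 times background in RM1-VE and 1.91, 1.64 and 1.77 in RM1-MXRA7, at least 5.80-fold lower, with a log2 ratio of -2.63 ± 0.20 (SD, n = 3). The other Cth probe gave 31.7, 20.5 and 22.7 against 2.39, 2.09 and 2.62. It missed the rule since RM1-MXRA7 stayed above 2 times background, although not well above background, and its bound was at least 8.86-fold lower. Of the RM1-VE-only genes only Cth and Kif26a had another probe on the array.

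The step before Cth was lower as well. Cbs, which makes cystathionine, gave 17.1, 16.8 and 21.3 times background in RM1-MXRA7 and 46.7, 72.3 and 66.9 in RM1-VE, and fell with a log2 ratio of -1.21 ± 0.08 (SD, n = 3; adjusted p = 7.56e-09 by limma). Oplah, the 5-oxoprolinase that returns glutamate in the glutathione cycle, fell with a log2 ratio of -2.25 ± 0.20 (adjusted p = 1.28e-11), and Ggct, which makes 5-oxoproline in that cycle, with -0.38 ± 0.03 (adjusted p = 0.000767). In the other direction Gclc, the catalytic subunit of the first enzyme of glutathione synthesis, rose with 0.84 ± 0.24 (adjusted p = 3.83e-06), and Anpep, a surface aminopeptidase, with 0.77 ± 0.19 (adjusted p = 4.49e-06). The cystine transporter gene Slc7a11 had a log2 ratio of -0.01 ± 0.04 and was not called (adjusted p = 0.929). Over the 20 tested genes of transsulfuration and glutathione metabolism 5 rose, 6 fell and 9 were not called, with a median log2 ratio of 0.00. Among all genes 11.0% were called higher and 12.6% lower.

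**Figure D3:**
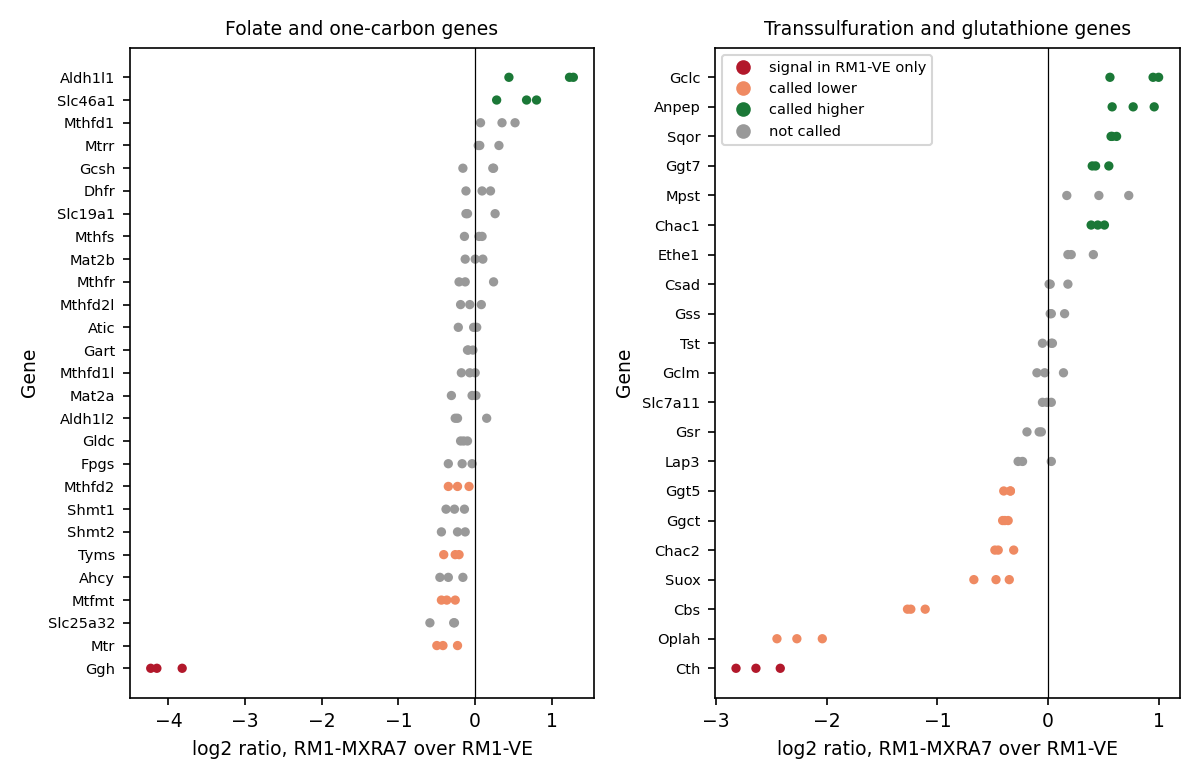
Log2 ratios of RM1-MXRA7 over RM1-VE on the 3 arrays for the folate and one-carbon list and for the transsulfuration and glutathione list, 1 row per gene. Ggh at -4.06 and Cth at -2.63 lie beyond the other genes of their lists, of which Oplah at -2.25 comes nearest to Cth.

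Tmem185b, a gene for a multi-pass membrane protein, gave 14.3, 16.9 and 16.3 times background in RM1-VE and 1.65, 1.96 and 1.77 in RM1-MXRA7. This is lower by a factor of at least 6.84 in RM1-MXRA7, with a log2 ratio of -2.92 ± 0.09 (SD, n = 3). Its X-linked paralogue Tmem185a was measurable in both lines and was not called, at a log2 ratio of -0.09 ± 0.05 (limma adjusted p = 0.317). In the list that held Tmem185a, which mixes Tmem185, Tmtc, Zmat and Fahd genes and is no pathway, 3 of 11 tested genes rose and 1 fell, against 11.0% and 12.6% of all genes. The latter was Fahd2a, at least 6.76-fold lower (limma adjusted p = 2.04e-13), whose RM1-MXRA7 signal of 1.97, 1.82 and 2.44 was not well above background on any array but missed the rule on array 3.

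Klhl13, a substrate adaptor of the CUL3 ubiquitin ligase that acts in cell division, gave 8.02, 9.07 and 8.24 times background in RM1-VE and 1.82, 1.77 and 1.59 in RM1-MXRA7, at least 3.73-fold lower. Its log2 ratio was -2.04 ± 0.17 (SD, n = 3). None of the 4 tested KLHL and CUL3 partner genes was called both before and after the surface trend was removed. Of all genes 11.0% were called higher and 12.6% lower, and 4 genes are too few to set beside these shares. Cul3 itself had log2 ratios of 0.37 before and 0.08 after (limma adjusted p = 0.00164 and 0.328).

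Pmaip1, also called Noxa, is a BH3-only gene that p53 activates and whose protein blocks the survival factor MCL1. It gave 4.90, 4.85 and 6.34 times background in RM1-VE and 1.85, 1.55 and 1.72 in RM1-MXRA7, at least 2.80-fold lower. The log2 ratio was -1.67 ± 0.18 (SD, n = 3). Of 6 other BH3-only genes tested, 1 rose, 0 fell and 5 were not called, where 11.0% of all genes were called higher and 12.6% lower. The one that rose was Bmf, with a log2 ratio of 0.93 ± 0.32 (limma adjusted p = 3.70e-06), opposite in sign to Pmaip1.

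Tfap2c encodes AP-2 gamma, a transcription factor of trophoblast, germ cells and epithelia. It gave 4.28, 3.81 and 4.20 times background in RM1-VE and 1.66, 1.55 and 1.67 in RM1-MXRA7, at least 2.06-fold lower, with a log2 ratio of -1.25 ± 0.11 (SD, n = 3). Its relative Tfap2a was bright in both lines and was not called, at a log2 ratio of 0.04 ± 0.16 (limma adjusted p = 0.717). Kif26a, an atypical kinesin, gave 4.06, 5.52 and 5.08 against 1.73, 1.90 and 1.85, at least 2.38-fold lower, with a log2 ratio of -1.43 ± 0.07. On mm9 the probes of Tfap2c and Kif26a lie at chr2:172383860-172383919 and chr12:113419259-113419318. A second Kif26a probe was dim in both lines, and Kif26b had a log2 ratio of -0.10 and was not called.

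The remaining members were Dennd2d, which encodes a DENN-domain activator of Rab GTPases, and the predicted X-linked gene AA414768. Dennd2d gave 4.80, 4.05 and 4.90 times background in RM1-VE and 1.93, 1.65 and 1.85 in RM1-MXRA7, at least 2.18-fold lower. For AA414768 the values were 5.40, 4.64 and 5.0 against 1.76, 1.98 and 1.90, at least 2.41-fold lower. Its log2 ratio was -1.40 ± 0.18 and that of Dennd2d -1.21 ± 0.12 (SD, n = 3). Both lie close to the limits of the rule. The Dennd2d probe is at chr3:106303719-106303778 and the AA414768 probe at chrX:12515542-12515601 (mm9). Dennd2c, of the same family as Dennd2d, fell with a log2 ratio of -0.44 (limma adjusted p = 0.000977).

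Unlike the chromosome 12 family, the RM1-VE-only genes were scattered over 7 chromosomes, and for 4 of them no tested neighbour was called. Within 500 kb, 0 of 2 tested genes beside Ggh, 0 of 6 beside Cth, 0 of 6 beside Tmem185b and 0 of 8 beside AA414768 were called in either direction, and no tested gene lay near Klhl13. Beside Kif26a 5 of 17 neighbours rose and 3 fell, beside Dennd2d 2 of 11 rose and 2 fell, beside Tfap2c 3 of 10 rose and 2 fell, and the 1 gene tested beside Pmaip1 rose. Over all genes 11.0% were called higher and 12.6% lower. Of the RM1-MXRA7-only genes, Xlr had 1 of 7 neighbours higher, Trim68 0 of 12 higher and 2 lower, and the chromosome 12 probes 4 to 5 of 18 to 21 higher and 0 to 1 lower. The higher neighbours of the chromosome 12 probes were not only Eif1a-like genes. Adck1, which is not on that list, lay 423.9 kb from the nearest member probe and rose with a log2 ratio of 2.17 (limma adjusted p = 1.37e-11). Among the neighbours of Kif26a, Tdrd9, a germ-cell helicase gene at a distance of -113.4 kb from it, fell with a log2 ratio of -2.02 (limma adjusted p = 2.16e-10). The 5 RM1-VE-only promoters that matched held 10 to 25 CG dinucleotides in the 250 bases before the start, and the 5 RM1-MXRA7-only promoters 1 to 12, against a median of 6 over all promoters. The ranges overlap, at Trim68 with 12, and the difference was not tested.

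Most genes had nothing of this kind. On all 3 arrays 17271 probes were bright in both lines and 6795 were dim in both. Since the array as a whole was dim in Cy3 less often, at 7036 probes against 14025 in Cy5, the limit of 2 was not equally strict in both directions. Blank control spots had a median Cy3 signal of 1.65, 1.58 and 1.76 times background, and the RM1-VE-only members had Cy3 signals between 1.55 and 1.99. Their Cy3 signals exceeded the 95th percentile of the blank spots only for Tmem185b and AA414768 on array 2, where it was 1.92. In Cy5 that percentile was 1.55, 1.42 and 1.91. It was exceeded by Xlr and Gm5168 on array 1, by Gm21319, BB287469, Trim68, Xlr and Gm5168 on array 2, and by Gm5168 on array 3, so these members were not at blank level in RM1-VE on every array. On array 3, 4 of the 153 blank spots exceeded 3.5 times background in each channel, against 1 and 0 on the others.

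**Figure D4:**
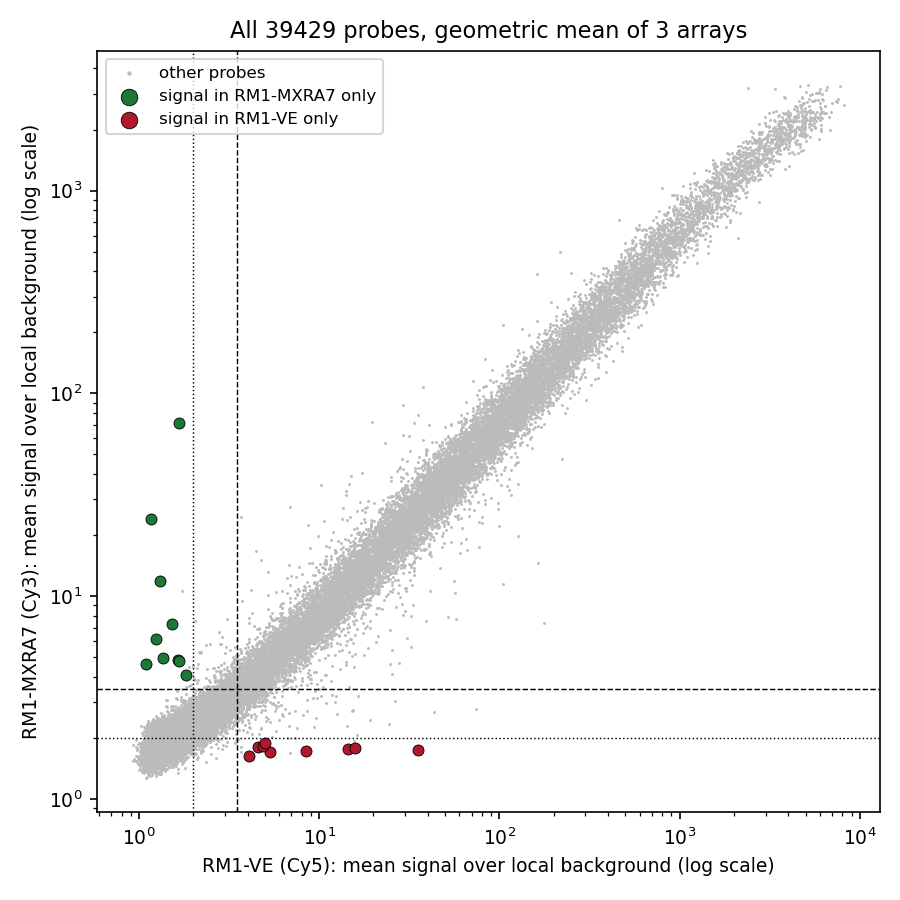
Signal over background in RM1-MXRA7 against RM1-VE for all 39429 probes (geometric means of 3 arrays, log axes), with the members coloured. The 10 RM1-MXRA7-only and the 9 RM1-VE-only probes lie off the band that most probes form.

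The edges of the rule ran through closely spaced values. Inside it, the lowest bright values were 3.58 for Gm5168 and 3.71 for Trim68 in one direction, and 3.81 for Tfap2c and 4.05 for Dennd2d in the other. Just outside, Col11a2 reached 2.98 and an unnamed probe 3.1 in RM1-MXRA7, and Derl3 3.22 and C130026I21Rik 3.17 in RM1-VE. Krba1 missed by its dim value alone, which was 2.002 on array 3, while RM1-VE gave 16.4, 11.7 and 20 times background. Tdrp, at a dim value of 2.08, and Dsp, which encodes desmoplakin, at 2.09, missed likewise.

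The GC content of the member probes ran from 35.0% to 45.0% in both sets, with medians of 35.8% and 36.7%, against a median of 41.7% over all probes. Of the 532 rows on the array, the RM1-MXRA7-only probes lay between rows 26 and 482 and the RM1-VE-only probes between rows 27 and 282. Removal of the surface trend moved no member's mean log2 ratio by more than 0.11. The SD between arrays ran from 0.07 for Kif26a to 0.28 for Trim68.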

How the data were processed

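The deposited array files, per the file headers, are Agilent Feature Extraction output (version 10.7.1.1 per the submitters' processing notes) with mean, background and processed intensity for Cy3 and Cy5. The authors' series matrix gives a linear ratio. Within 1%, all of its values (100%) were the processed Cy3 signal divided by the processed Cy5 signal, and its column medians were 1.02, 1.03 and 0.972. The rule used mean signal over median background, with the spots of a probe averaged and the 1377 control spots left out.

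For log2 ratios, normexp with an offset of 50 was used as background correction, followed by loess per array, in limma 3.58.1 (R 4.3.3). Genes (16825, the brightest of 21803 detected probes each) were tested against 0 with limma, two-sided, at a Benjamini-Hochberg adjusted p of 0.05. A gene is said to rise or fall only where it was also called after a surface of degree 4 over rows and columns was removed, which took 19.8% to 27.4% of the variance; the p-values printed are those before removal unless stated. They measure only the spread between these arrays. Steps were tested on simulated data.

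Names came from RefSeq accessions for 27508 probes. Named were up to 15 members per direction by bright-over-dim ratio, the nearest probes on either side of the limits, up to 4 genes per list by smallest adjusted p, and neighbours and other probes of members. Slc7a11, Fpgs, Ggct, Cul3, Mtr, Zscan4c, Tcstv1 and Tcstv3 and the family relatives were named for their roles, after their values were seen. Members and lists were chosen with earlier results of these data known, and the lists of AP-2, BH3-only, KLHL, DENND2 and Kif26 relatives after the members had been seen. Each array is a numbered pair of both lines, so the ratio holds the pairing. Some marker genes are not reported here.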

Additional observations from a re-analysis of the deposited data

How the results depend on the processing

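The counts of members depend on the limits. Of 10 and 9 probes (RM1-MXRA7-only and RM1-VE-only), 5 and 4 passed an upper limit of 5, and 4 and 0 a lower limit of 1.5. A lower limit of 2.5 gave 16 and 24 probes, and Agilent's well-above-background flag 78 and 173, which held 9 of the 10 and all 9 members. Signals scaled to the blank spots of each channel, an alternative chosen after seeing the data, gave 8 (7 of them members) and 38. This setting used an upper limit of 2.5 and a lower limit of 1.5 on the scaled signals, in place of the limits of the rule. Its counts therefore cannot be put down to the scaling alone. Leaving out each array in turn gave 10 to 11 and 9 to 14, the 14 without replicate 3. An upper limit of 3 gave 11 and 11, and the median spot signal 10 and 10. Of 190 log2 ratios of members under other settings 0 changed sign, 130 stayed within 1 SD and 60 moved by more. Most of those that moved came with a smaller offset or none, where their size grew to at most 8.16. These counts do not measure stability, as much of them was fixed in advance. Members were chosen for the same direction on all 3 arrays, and leaving out 1 array cannot move a mean of 3 by 1 SD. Fits of single channels repeat the main value, and the series matrix values repeat the processed signals. Read by its other, unmapped probe in place of a member probe, Gm2016 gave -0.16. That probe was not well above background in either line on any array, so its sign is not a measured reversal. The limma counts of 4018 higher and 3950 lower genes became 954 and 9869 with median centring, 2631 and 2741 with the surface removed, 1930 and 2170 with Agilent's processed signals, and 1918 and 2165 with the series matrix values. Leaving out each array in turn gave 2533 to 3890 higher and 2577 to 3508 lower, the lowest of both without replicate 2. A fit of single channels with the array as a replicate block gave 4018 and 3950, and with no replicate block 1216 and 1107. Near the blank level, signal over background limits what can be said: a dim member may be expressed below detection.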

Other observations

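The matrix metalloproteinase list held no member. Of 14 tested genes of metalloproteinases and their inhibitors 3 rose, 2 fell and 9 were not called, against 11.0% higher and 12.6% lower of all genes. Mmp2, gelatinase A, came nearest to the rule, with 5.37, 8.55 and 8.68 times background in RM1-VE and 2.03, 1.78 and 2.22 in RM1-MXRA7, not well above background there on any array, and was at least 3.32-fold lower (adjusted p = 1.58e-10 by limma). The stromelysin gene Mmp3 rose with 1.32 ± 0.29 (adjusted p = 4.16e-08) and the collagenase gene Mmp13 with 0.82 ± 0.24 (adjusted p = 4.49e-06). Zmat1, a zinc finger gene, Tmtc2 and Tmtc1, which encode mannosyltransferases of the endoplasmic reticulum, were the 3 genes that rose in the list of Tmem185a, with log2 ratios of 0.97, 0.93 and 0.39.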
